A study of Mus musculus with 12 samples.

Results

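The proteasome is the protease complex that degrades ubiquitin-tagged proteins, and its subunits are encoded mainly by the Psma, Psmb, Psmc and Psmd genes. The genes described here are the rows of the deposited table whose Ensembl identifier maps to a protein-coding mouse symbol of the Psma, Psmb, Psmc or Psmd series, or to Psme1, Psme2, Psme3 or Psme4. The rule uses names alone. The rule found 44 genes among the 47069 in the table, and 42 of them had enough counts to be tested, among 17286 genes tested in all.

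The study sequenced RNA of frontal cortex from male C57BL/6 mice, with 12 libraries in 4 groups of 3. Wild-type mice received vehicle (libraries 1, 3 and 4) or clozapine at 10 mg/kg (libraries 2, 3 and 5). Mice labelled HDAC2(loxP,loxP), CamKIIa-Cre(+,-) received vehicle (libraries 2, 4 and 5) or the same dose of clozapine (libraries 3, 4 and 5), and the series describes a conditional knockout and chronic dosing. Clozapine, an antipsychotic, acts on receptors of serotonin and dopamine among others, and Hdac2 encodes a histone deacetylase. The Camk2a promoter drives Cre mainly in forebrain excitatory neurons, so glia and most interneurons of such mice would keep the intact gene. Nothing in the labels says whether the wild-type mice carry loxP sites or Cre, how old the animals were, or which libraries came from separate animals, so the p-values speak only of the spread among libraries, which may be technical. Hdac2 itself was at 63.4 to 75.6 CPM (counts per 1000000, scaled to library size) in the wild-type libraries and 70.4 to 76.5 CPM in those labelled knockout. Gene-wide counts include exons outside a deleted stretch and therefore do not check a deletion, so the labels alone give each genotype direction below. Total counts per library ran from 23408372 to 28069638. Markers of excitatory neurons (6 of 6 measured, summed level 8154 to 9658 CPM) and interneurons (6 of 6, 915.4 to 1046 CPM) were present in every library. In bulk tissue, fewer cells of a type and less RNA per cell cannot be told apart.

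The 26S proteasome has a barrel-shaped 20S core and 19S caps. The core stacks rings of alpha subunits, which gate the entrance, on rings of beta subunits, 3 of which (Psmb5, Psmb6 and Psmb7) carry the proteolytic sites. The 19S cap holds a ring of ATPases (Psmc genes) that unfold the substrate and non-ATPase subunits (most Psmd genes) that bind and remove ubiquitin. Interferon induces replacement beta subunits (Psmb8, Psmb9 and Psmb10) and the activator PA28 (Psme1 and Psme2), and both help to cut peptides for antigen presentation. In neurons the proteasome turns over synaptic and regulatory proteins.

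By these roles the 44 genes comprised 8 alpha subunits (7 tested), 7 constitutive beta subunits (7 tested), 4 immune or thymus beta subunits (3 tested), 6 ATPases, 11 non-ATPase subunits, 3 chaperones of 19S base assembly (Psmd5, Psmd9 and Psmd10), 4 activators, and Psmc3ip. Psmc3ip matches the rule by its name only: it encodes a partner of the meiotic recombinases, not a subunit, and lay between 1.49 and 2.11 CPM. The 2 genes not tested are expressed mainly outside the brain. Psma8, a testis alpha subunit, had 3 to 11 counts per library, and Psmb11, the beta subunit of thymic epithelium, had 1 to 7.

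The 31 constitutive subunits of the 20S core and 19S cap were detected in every library, at levels that varied little between libraries. Their mean levels lay between 43.4 CPM (Psmb2) and 214.9 CPM (Psmd2), and their coefficients of variation over all 12 libraries between 2.4% (Psmb4) and 6.47% (Psma3), with a median of 4.08%. Over all tested genes the median coefficient of variation was 9.78%, at a lower median level (15.9 against 78.8 CPM for the 31 subunits), and this difference in level was not matched. The sum over the matched genes was 2963 to 3169 CPM, lowest in labelled knockout clozapine 5 and highest in labelled knockout vehicle 5. Within a library, the median deviation of the 42 tested members from their 12-library means was -0.048 to 0.058 on the log2 scale, with the same libraries at the ends.

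Levels of different genes are compared per kilobase of exon (CPM per kb), since longer transcripts give more reads. Subunits that are present in equal number in the complex differed several-fold in transcript level. Among the alpha subunits Psma6 stood highest at 52.8 CPM per kb and Psma2 lowest at 16.3, a ratio of 3.24. The constitutive beta subunits ran from Psmb5 at 87.8 to Psmb7 at 20.3 CPM per kb, the ATPases from Psmc5 at 118.9 to Psmc6 at 16.3, and the non-ATPase subunits from Psmd2 at 53.2 to Psmd11 at 9.03. The base chaperones lay between Psmd10 at 9.38, just above Psmd11, and Psmd9 at 3.55 CPM per kb. The activators lay between Psme3 at 33.5 and Psme4 at 5.98. These orders depend in part on the length used: per kb of the longest transcript, Psmb4 (103.1) rather than Psmb5 (87.8) was the highest beta subunit, and the 3 chaperones differed by a ratio of only 1.03. The highest and lowest genes of the alpha, ATPase, non-ATPase and activator groups were unchanged.

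**Figure D1:**
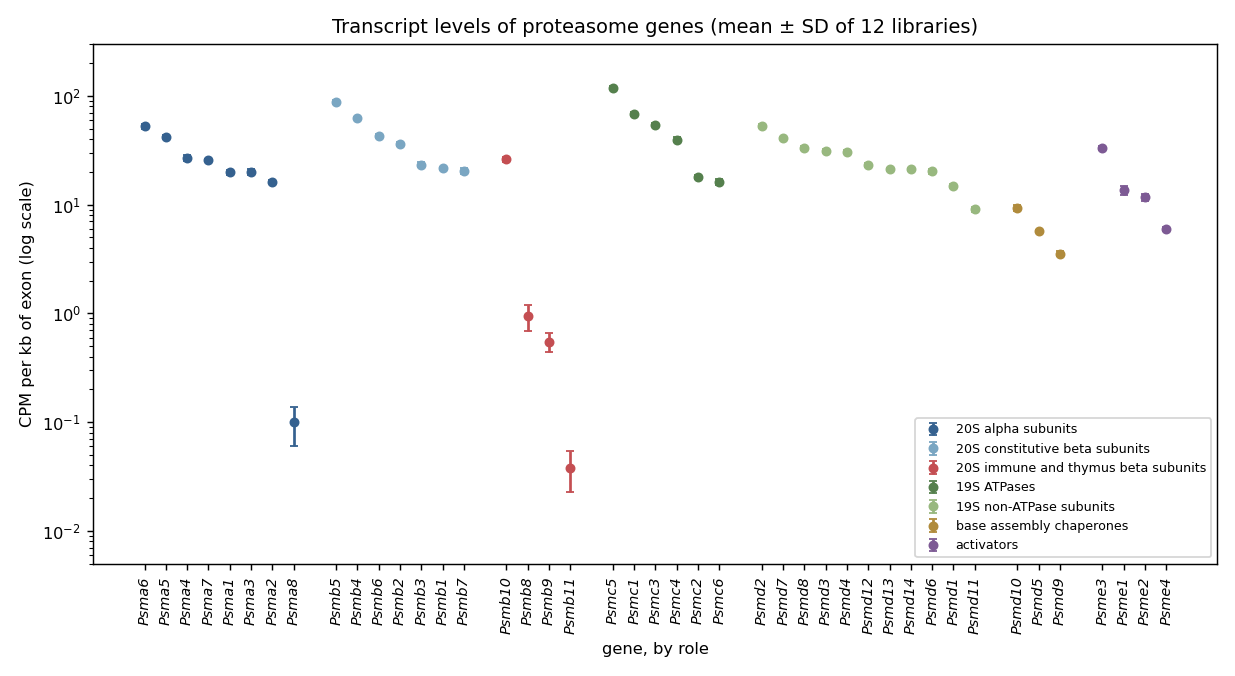
Levels of 43 proteasome genes by role, in CPM per kb of exon on a log axis (points, mean of 12 libraries; bars, SD; Psmc3ip is not drawn). Constitutive subunits lie between 9.03 and 118.9 CPM per kb, Psmb10 lies among them at 26.1, and Psmb8 and Psmb9 lie at 0.942 and 0.55.

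Values by library show how closely the ends of these ranges repeat. Psma6, an alpha subunit, was at 65.4, 60.6 and 65.7 CPM under vehicle in wild type and 61.4, 62.3 and 68.1 CPM under clozapine in wild type. It was at 62.9, 65.8 and 73.7 CPM under vehicle in the labelled knockout and 66.0, 67.1 and 62.7 CPM under clozapine in the labelled knockout. The groups overlapped, and labelled knockout vehicle 5 was the highest library. Psma2, the lowest tested alpha subunit per kb, was at 59.7, 55.7 and 61.0 CPM under vehicle in wild type and 63.6, 59.3 and 61.0 under clozapine in wild type. In the labelled knockout it was at 60.9, 60.8 and 61.7 CPM with vehicle and 58.5, 59.2 and 58.0 CPM with clozapine, where the groups did not overlap, at means of 61.1 and 58.6 CPM.

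Psmc5, an ATPase of the 19S base and the most abundant proteasome transcript per kb, was at 172.2, 161.7 and 170.6 CPM under vehicle in wild type and 162.5, 164.8 and 167.6 CPM under clozapine in wild type. In the labelled knockout it was at 160.9, 167.9 and 163.1 CPM with vehicle and 170.2, 171.3 and 156.6 CPM with clozapine. All 4 groups overlapped. Psmd2, the large scaffold subunit that docks ubiquitin receptors, was at 214.4, 218.0 and 231.6 CPM under vehicle in wild type and 210.2, 219.5 and 211.8 CPM under clozapine in wild type. Its levels in the labelled knockout were 203.4, 219.0 and 207.9 CPM with vehicle and 224.4, 213.8 and 204.8 CPM with clozapine. The 4 groups overlapped here too. Psmd11, a lid subunit and the lowest non-ATPase subunit per kb, was at 57.1, 57.4 and 63.6 CPM under vehicle in wild type and 57.4, 58.8 and 57.6 CPM under clozapine in wild type. Its labelled knockout values were 55.5, 60.1 and 54.9 CPM with vehicle and 53.8, 60.2 and 55.6 CPM with clozapine, within the wild-type spread at the upper end and slightly below it at the lower.

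Among the chaperones, which bind ATPases during assembly of the base and leave the finished particle, Psmd10 was at 13.1, 12.1 and 14.0 CPM under vehicle in wild type and 14.7, 15 and 14.2 CPM under clozapine in wild type. It was at 13.0, 14.8 and 13.7 CPM under vehicle in the labelled knockout and 14.1, 13.4 and 13.2 CPM under clozapine in the labelled knockout. The 2 wild-type groups did not overlap, but the difference did not pass (log2 change 0.16, SE 0.08, edgeR quasi-likelihood test with Benjamini-Hochberg adjustment, adjusted p = 0.461). Psmd9 was at 25.2, 25 and 25.6 CPM in the libraries of wild-type vehicle, 29.6, 25.4 and 25.2 in those of wild-type clozapine, 25.1, 26.8 and 26.2 in those of labelled knockout vehicle and 25.5, 25.7 and 23.3 in those of labelled knockout clozapine. The value of 29.6 in wild-type clozapine 2 was the highest, and 1849 exonic bases of Psmd9 overlap Gm26745, so its level is uncertain.

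None of the constitutive catalytic subunits was called in any comparison, and their libraries mostly overlapped. Psmb5, which has the chymotrypsin-like site, was at 77.3, 77.7 and 77.8 CPM in the libraries of wild-type vehicle, 77.3, 85.3 and 80.9 in those of wild-type clozapine, 75.4, 82.6 and 74.5 in those of labelled knockout vehicle and 83.1, 80.7 and 74.1 in those of labelled knockout clozapine. Psmb6, with the caspase-like site, was at 77.0, 78.0 and 76.5 CPM in the libraries of wild-type vehicle, 79.9, 72.9 and 81.6 in those of wild-type clozapine, 81.4, 79.5 and 83.3 in those of labelled knockout vehicle and 86.3, 82.4 and 77.2 in those of labelled knockout clozapine. Psmb7, with the trypsin-like site, was at 70.7, 64.3 and 69.6 CPM in the libraries of wild-type vehicle, 59.6, 65.0 and 74.3 in those of wild-type clozapine, 68.7, 71.8 and 75.1 in those of labelled knockout vehicle and 71.3, 71.7 and 70.0 in those of labelled knockout clozapine. Only for Psmb6 did any compared pair of groups separate, with labelled knockout vehicle above wild-type vehicle by 0.08 on the log2 scale (edgeR adjusted p = 0.430). For these 3 genes, the log2 changes in the 4 pairwise comparisons lay between -0.04 and 0.10, and the 95% intervals between -0.19 and 0.24.

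Proteasome subunit genes share a known regulator: the transcription factor NRF1, encoded by Nfe2l1, binds antioxidant response elements (ARE) in their promoters when the proteasome is inhibited. Promoter windows of 300 bases, 250 before and 50 from the RefSeq start (GRCm38.p6), were found for 37 of the 44 genes (40 windows). The ARE core TGACNNNGC, searched on both strands, was found in 6 of the 37 (16.2%) against 14% of all 27025 genes with windows. The 6 were Psmb5, Psmb6, Psmc6, Psmd9, Psmd12 and Psme4. The ETS core CCGGAAG was found in 13 of 37 (35.1%) against 9.93%, the CCAAT box in 15 of 37 (40.5%) against 41.1%, and the core GAAANNGAA of the interferon-stimulated response element (ISRE) in 6 of 37 (16.2%) against 9.76%. The genes with windows were not matched to the members for level or base composition. A match is a description of the letters and says nothing of binding, which was not measured. The stretches of Psmb5 and Psmb6 before the first annotated exon are shown because these catalytic genes have the match close to their start, 47 and 9 bases before it. The site of Psmc6, 227 bases before its start, is shown beside them. The matches of Psme4 and Psmd9, at bases -7 and -31 from their starts, are not shown. Capitals mark the ARE core or, in Psmc6, its reverse complement, and each sequence is on the strand of its gene: chr14:54618023-54618245 (minus strand) for Psmb5, chr11:70525107-70525356 (plus) for Psmb6 and chr14:45329587-45329616 (plus) for Psmc6, all outside the annotated genes.
Psmb5: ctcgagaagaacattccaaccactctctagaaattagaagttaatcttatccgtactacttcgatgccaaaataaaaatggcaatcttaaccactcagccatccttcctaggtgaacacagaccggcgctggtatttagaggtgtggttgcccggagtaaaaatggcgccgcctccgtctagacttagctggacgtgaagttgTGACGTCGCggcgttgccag
Psmb6: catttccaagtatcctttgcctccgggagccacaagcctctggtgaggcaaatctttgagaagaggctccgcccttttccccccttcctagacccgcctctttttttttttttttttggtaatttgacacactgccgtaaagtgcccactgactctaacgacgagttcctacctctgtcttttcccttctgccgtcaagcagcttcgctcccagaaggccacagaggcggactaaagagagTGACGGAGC
Psmc6: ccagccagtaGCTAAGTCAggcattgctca

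The replacement subunits of the immunoproteasome fell into 2 classes. Psmb8 and Psmb9 were scarce, whereas Psmb10 lay within the range of the constitutive subunits. Per kb of exon, Psmb8 was at 0.627% to 1.66% of the Psmb5 level it replaces (median 1.09% over the 12 libraries) and Psmb9 at 0.848% to 1.7% of Psmb6 (median 1.26%). Per kb of the longest transcript these shares were 1.11% to 2.95% (median 1.93%) and 0.555% to 1.11% (median 0.827%). Psmb10 was at 113.7% to 151.1% of Psmb7 (median 129%), and at 123.2% to 163.7% per kb of the longest transcript. In CPM, without division by length, it was at 56.7% to 75.3% (median 64.3%). Which of the pair is more abundant therefore depends on the annotated lengths, 1705 bases of exon for Psmb10 and 3421 for Psmb7. Psmb7 was also the lowest constitutive beta subunit on both scales per kb. Psmb10 (chromosome 8, 105935735 to 105938444, GRCm38) had 984 to 1267 counts per library, no exonic overlap with another annotated gene and only whole counts. Psmb7 shares 405 exonic bases with Nek6, which makes the denominator of that ratio uncertain. The markers of microglia, the resident immune cells, summed to 203.4 to 249.6 CPM, and all 6 were detected.

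Psmb10 was at 46.8, 45.2 and 47.7 CPM in the libraries of wild-type vehicle, 44.9, 46.2 and 42.1 in those of wild-type clozapine, 43.3, 40.8 and 43.8 in those of labelled knockout vehicle and 46.7, 43.3 and 43.2 in those of labelled knockout clozapine. All 3 labelled knockout vehicle libraries lay below the wild-type vehicle libraries, a difference that did not pass (log2 change -0.13, SE 0.06, edgeR adjusted p = 0.184), and it was called once libraries were corrected for gene length and GC content. Psmb8 was at 2.44, 2.80 and 2.02 CPM in the libraries of wild-type vehicle, 4.83, 2.83 and 3.34 in those of wild-type clozapine, 4.04, 3.77 and 3.32 in those of labelled knockout vehicle and 3.91, 1.90 and 3.02 in those of labelled knockout clozapine. Wild-type clozapine 2 was the highest library and labelled knockout clozapine 4 the lowest. Psmb9 was at 1.91, 1.73 and 1.27 CPM in the libraries of wild-type vehicle, 2.65, 1.98 and 2.71 in those of wild-type clozapine, 2, 2.20 and 1.97 in those of labelled knockout vehicle and 1.89, 1.69 and 2.15 in those of labelled knockout clozapine. Psmb8 shares 498 exonic bases with Gm20496. For both genes the wild-type vehicle libraries lay below every library of wild-type clozapine and of labelled knockout vehicle. Against wild-type clozapine the margins were narrow, 2.80 to 2.83 CPM for Psmb8 and 1.91 to 1.98 CPM for Psmb9. Against labelled knockout vehicle the margin of Psmb9 was 1.91 to 1.97 CPM. Libraries separated in these directions for 7.33% and 13.2% of all genes.

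Within wild type, clozapine was followed by no called change in any of the 42 tested members. None was called higher (33 of 17286 genes, 0.191%, were called higher in all) and none lower (108 genes, 0.625%) by edgeR's quasi-likelihood test at an adjusted p under 0.05. DESeq2 and limma-voom called no member either. At an unadjusted p under 0.05 there were 2 members (4.76%, against 2004 genes or 11.6% in all). These were Psmb9 (log2 change 0.58, SE 0.19, edgeR adjusted p = 0.190, 3 libraries against 3) and Psmb8 (0.60, SE 0.24, edgeR adjusted p = 0.323). Without wild-type clozapine 2 the changes were 0.52 for Psmb9 (edgeR adjusted p = 0.369) and 0.35 for Psmb8 (edgeR adjusted p = 0.667). The median log2 change was -0.01 over the members and 0.00 over all genes, and 24 of the 42 members were below 0. With correction for length and GC content 29 of the 42 were below 0 and their median was -0.03. EdgeR then called 0 members (150 of all genes), and 6 members had an unadjusted p under 0.05. The share of all genes at that p was not counted there. The libraries of the groups did not overlap for 5 members that were higher (background 7.33%) and 2 that were lower (8.24%). The 5 were Psmb8, Psmb9, Psmd10, Psme2 and Psme4, and the 2 were Psma7 and Psmd6. Among the 31 constitutive subunits the log2 changes lay between -0.11 and 0.06, and all 31 of their 95% intervals lay within 0.32 on either side of 0 on the log2 scale, where 0.32 is a rise by 25%. Over the tested members 38 of 42 intervals did, against 51.7% of all genes, whose median level is lower (15.9 against 64.6 CPM).

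**Figure D2:**
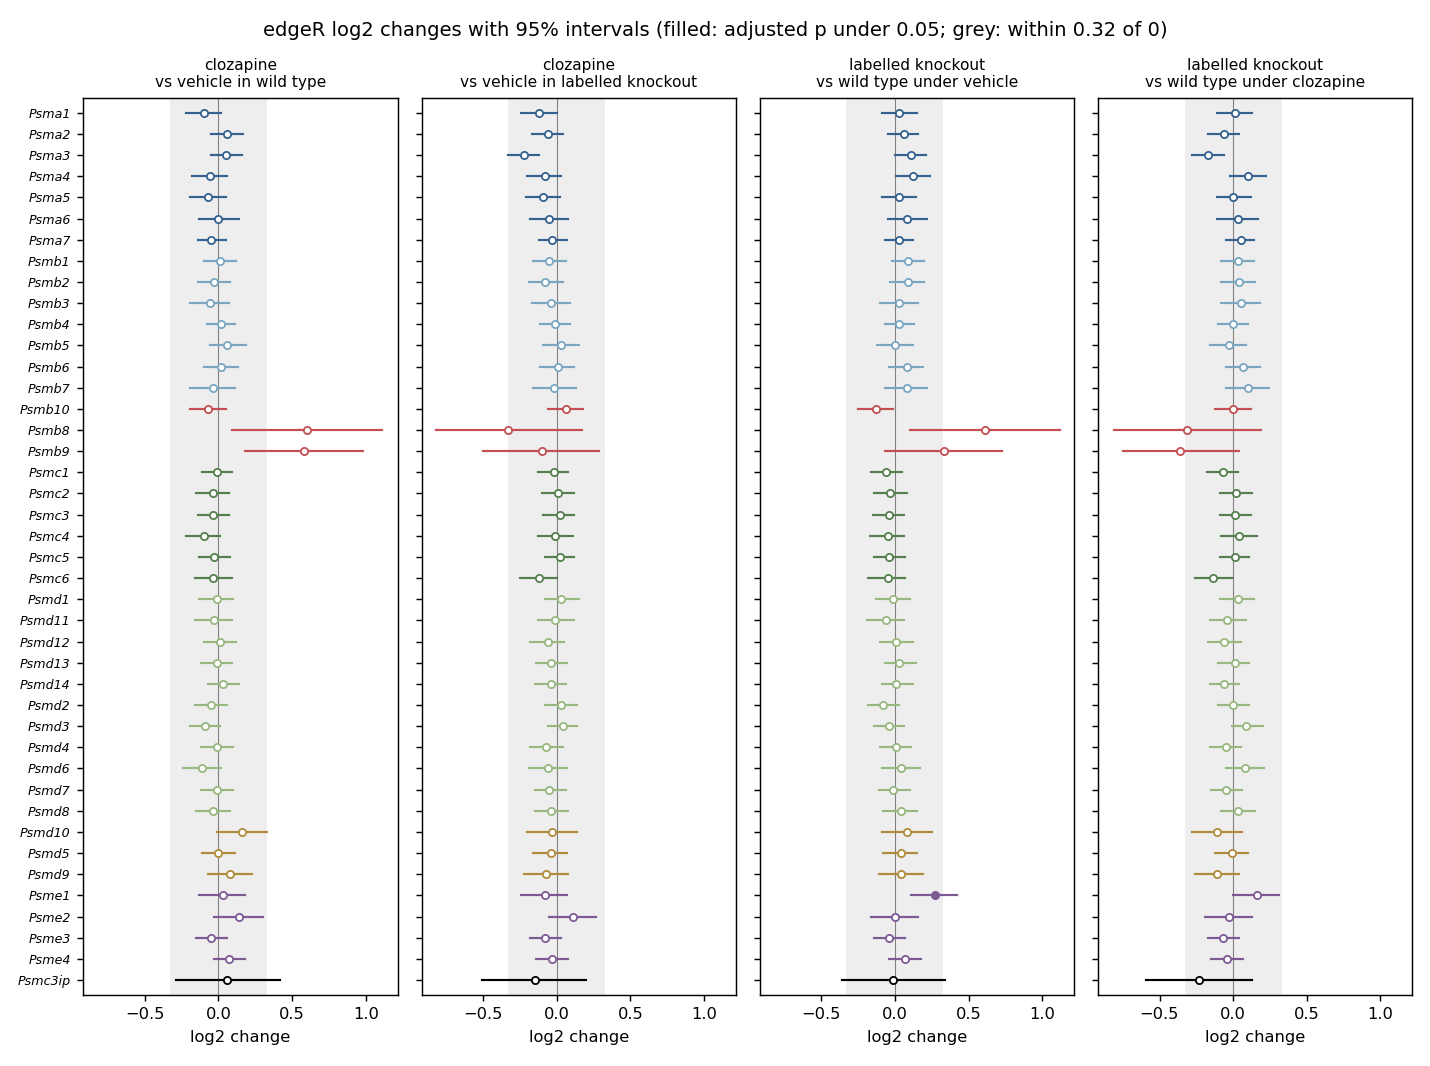
Log2 changes of the 42 tested members (circles) with 95% intervals (lines) in the 4 pairwise comparisons, by edgeR, coloured by role; filled circles have an adjusted p under 0.05 and the grey band reaches 0.32 to either side of 0. The single filled circle is Psme1 in labelled knockout against wild type under vehicle (0.27), and the wide intervals belong to the scarce genes Psmb8, Psmb9 and Psmc3ip.

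In the labelled knockout, clozapine was again followed by no called change among the members, with 0 higher and 0 lower (0.0116% and 0.0116% of all genes, 2 genes each). The alpha subunit Psma3 came nearest. It was at 79.9, 75.3 and 74.9 CPM under vehicle in wild type and 80.1, 77.6 and 81.1 CPM under clozapine in wild type. It was at 79.0, 82.1 and 86.1 CPM under vehicle in the labelled knockout and 72.0, 71.2 and 69.1 CPM under clozapine in the labelled knockout. The clozapine libraries of the labelled knockout were the lowest of all 12 and did not overlap with any other. Psma3 (chromosome 12, 70974621 to 70996347, GRCm38), which carries a C-terminal tail that binds other proteins, had a log2 change of -0.22 with clozapine in the labelled knockout (SE 0.05, 95% interval -0.33 to -0.12, edgeR adjusted p = 0.088). DESeq2 called it, with an adjusted p of 0.01, whereas limma-voom gave an adjusted p of 0.098 and called no member. With correction for gene length and GC content the change was -0.13 (edgeR adjusted p = 0.297). In 4 of its 12 libraries Psma3 had a value that was not whole, as arises when reads are shared between genes.

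Psmc6, an ATPase of the 19S base, was the member next in order of p. It was at 62.3, 57.7 and 58.8 CPM under vehicle in wild type and 56.2, 61.5 and 56.5 CPM under clozapine in wild type. It was at 56.8, 56.5 and 59.1 CPM under vehicle in the labelled knockout and 49.4, 52.6 and 56.4 CPM under clozapine in the labelled knockout. The last 2 groups separated only by the margin between 56.4 and 56.5 CPM. The log2 change was -0.12 (SE 0.06, edgeR adjusted p = 0.416), and with correction for length and GC content it was 0.02. No member had non-overlapping libraries that were higher (background 9.73%) and 3 had lower ones (8.96%), namely Psma2, Psma3 and Psmc6. All 7 tested alpha subunits had a log2 change below 0, from -0.22 to -0.03, as did 32 of the 42 members, with a median of -0.04 against 0.00 over all genes. With correction for length and GC content 5 of the 7 and 22 of the 42 were below 0 and the median was 0.00. Without labelled knockout vehicle 5 it was 6 of 7 and 27 of 42, with a median of -0.02. The labelled knockout vehicle group is the one with the highest library for proteasome genes (vehicle 5). The count at an unadjusted p under 0.05 was 1 member (2.38%, against 12.2% of all genes). Intervals within 0.32 of 0 were found for 38 of 42 members (51.2% of all genes), and for 30 of the 31 constitutive subunits, Psma3 being the exception.

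Under vehicle, the labelled knockout differed from wild type in 1 member. The activator gene Psme1 was called higher (4.01% of all genes were called higher), and no member was called lower (5.15%). Psme1 and Psme2 encode the alpha and beta subunits of PA28, a ring that caps the 20S core and opens its gate without ATP. Psme1, which lies on chromosome 14 from 55578123 to 55581529 (GRCm38), had 27.7, 26.2 and 28.4 CPM in the wild-type vehicle libraries and 32.4, 31.6 and 34.9 CPM in those of labelled knockout vehicle. Under clozapine the wild-type libraries had 30.2, 26.9 and 26.7 CPM and those of the labelled knockout 34.2, 30.2 and 29.0 CPM. The vehicle groups did not overlap, while the clozapine groups did. The log2 change under vehicle was 0.27 (SE 0.07, 95% interval 0.11 to 0.42, edgeR adjusted p = 0.032, 3 against 3), from a mean of 27.4 ± 1.1 to 33.0 ± 1.72 CPM (SD, n = 3). DESeq2 gave an adjusted p of 0.029 and limma-voom one of 0.022. The call was lost without wild-type vehicle 1 (edgeR adjusted p = 0.07), wild-type vehicle 3 (0.134), labelled knockout vehicle 2 (0.07) or labelled knockout vehicle 5 (0.128), and the log2 change over all 12 ways of leaving out 1 library stayed between 0.22 and 0.29. With correction for length and GC content it was 0.20 (edgeR adjusted p = 0.08).

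Its partner subunit was not called. Psme2 was at 20.9, 20.6 and 18.0 CPM in the wild-type vehicle libraries and 20.3, 18.4 and 20.8 CPM in those of labelled knockout vehicle, a log2 change of 0.00 (95% interval -0.16 to 0.16, edgeR adjusted p = 0.998). Under clozapine the wild-type libraries had 22.4, 21.5 and 21.5 CPM and those of the labelled knockout 22.5, 21.9 and 19.8 CPM. Per kb of exon, Psme1 was at 127.3% to 137.2% of the Psme2 level in labelled knockout vehicle and at 101.6% to 125.9% in wild-type vehicle, and no test of this ratio was made. Per kb of the longest transcript these shares were 77.2% to 83.2% and 61.6% to 76.4%, so which of the pair is more abundant depends on the length used. In 7 of 12 libraries Psme2 had a value that was not whole, and Psme1 shares 14 exonic bases with Emc9. Psme3, which encodes the mainly nuclear activator PA28-gamma, was at 102.9, 97.6 and 106.1 CPM in the libraries of wild-type vehicle, 99.4, 100.4 and 97.1 in those of wild-type clozapine, 97.9, 104.7 and 96.2 in those of labelled knockout vehicle and 94.1, 96.7 and 92.2 in those of labelled knockout clozapine. Psme4, which encodes the activator PA200, was at 48.1, 50.1 and 47.6 CPM, 50.6, 52.2 and 50.8, 49.7, 51.4 and 51.8, and 47.2, 51.1 and 51.2 in the same order. The wild-type clozapine libraries of Psme4 lay above those of wild-type vehicle, but edgeR called neither gene in any comparison.

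Psme1 was 1 of the 6 members whose promoter window holds the ISRE core. It is shown because Psme1 was the only called member. The 30 bases lie at chr14:55578494-55578523 (GRCm38.p6, plus strand) in an annotated exon and UTR of the gene, the match starts at base 11 from the RefSeq start, and capitals mark the reverse complement of the core.
Psme1: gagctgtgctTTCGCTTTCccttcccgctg

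The other members in the same comparison stayed uncalled. An unadjusted p under 0.05 was found for 5 members (11.9%, against 4114 genes or 23.8% in all). Besides Psme1 these were Psmb8 (log2 change 0.61, SE 0.24, edgeR adjusted p = 0.129), Psmb10, Psma4 (0.12, edgeR adjusted p = 0.188) and Psma3 (0.11, edgeR adjusted p = 0.207). In a fit of only the compared groups, Psmb8 passed as well as Psme1. Libraries did not overlap for 6 members that were higher (13.2% of all genes) and 1 that was lower (14.2%). The 6 were Psma4, Psma7, Psmb6, Psmb8, Psmb9 and Psme1, and the 1 was Psmb10. The median over the members was 0.03 against 0.00 over all genes, and it was -0.01 without labelled knockout vehicle 5 and -0.03 with correction for length and GC content. All 31 constitutive subunits had intervals within 0.32 of 0, with log2 changes between -0.08 and 0.12. Over the tested members this held for 38 of 42, against 45% of all genes. The 7 alpha subunits had log2 changes above 0 (0.03 to 0.12) and the 6 ATPases below 0 (-0.06 to -0.03), none of them called by edgeR. For the alpha subunits this direction turned with the processing: with correction for length and GC content 5 of the 7 were below 0 (-0.05 to 0.05), and without labelled knockout vehicle 5 this held for 2. The 6 ATPases were below 0 with that correction too (-0.17 to -0.07), where Psmc6 was called. By limma-voom 5 of the 6 were below 0, and it called 0 members lower.

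**Figure D3:**
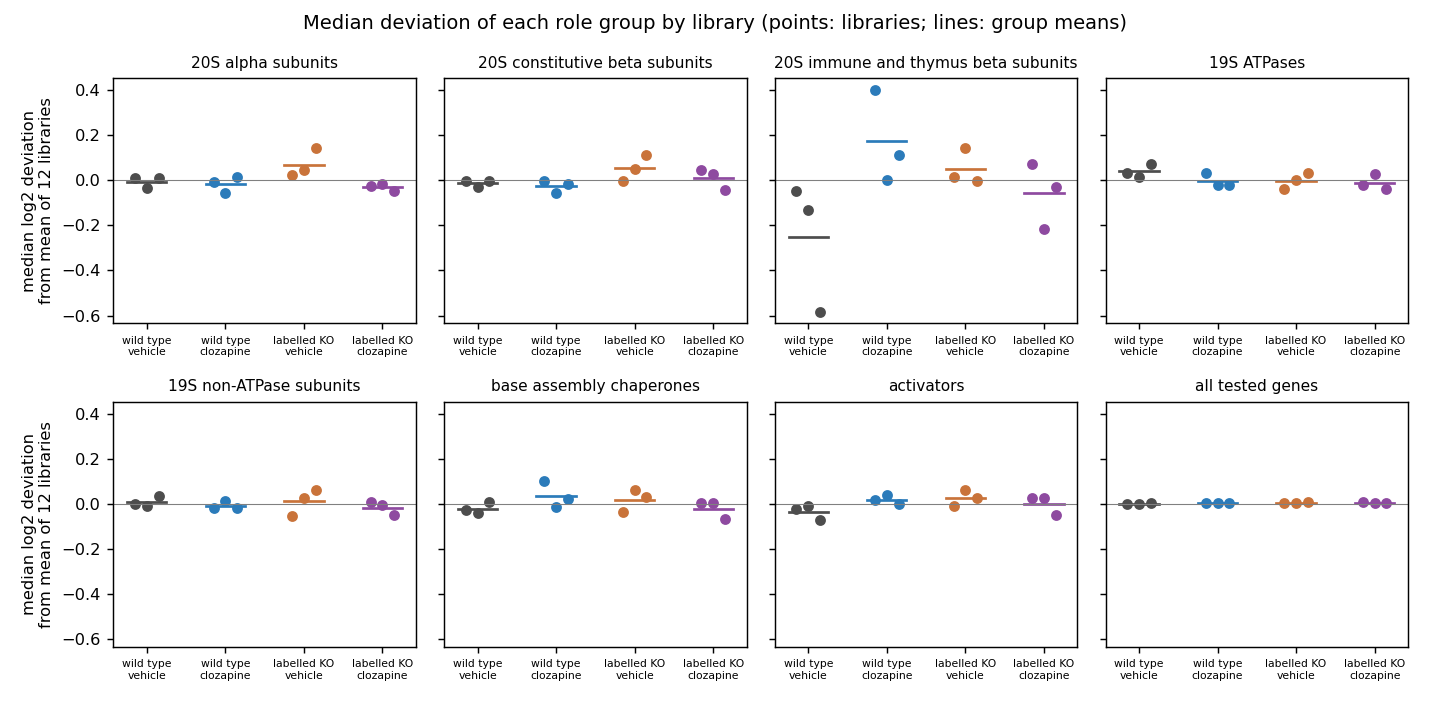
Median log2 deviation of each role group from its mean over the 12 libraries, by library (points) with group means (lines), beside the same over all tested genes. Constitutive groups stay close to 0. In labelled knockout vehicle 5 the alpha subunits are at 0.141 and the constitutive beta subunits at 0.114. The non-ATPase subunits are at 0.063 there and the ATPases at 0.033. The 3 immune beta subunits range from -0.583 to 0.402.

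Under clozapine, edgeR called no member between the labelled knockout and wild type, with 0 called higher (1.48% of all genes) and 0 lower (0.515%). At an unadjusted p under 0.05 there were 2 members (4.76%, against 2740 genes or 15.9% in all). These were Psma3 (log2 change -0.17, SE 0.05, edgeR adjusted p = 0.092) and Psmc6 (-0.14, SE 0.06, edgeR adjusted p = 0.261). This comparison shares its labelled knockout clozapine libraries with that of clozapine against vehicle above. Neither DESeq2 nor limma-voom called a member. Psme1 had a log2 change of 0.16 here (95% interval 0.00 to 0.31, edgeR adjusted p = 0.315). Libraries did not overlap for 3 higher members (11.8% of all genes) and 6 lower members (10.7%). The 3 were Psma4, Psmd3 and Psmd6, and the 6 were Psma2, Psma3, Psmd14, Psmd10, Psme3 and Psmc3ip. The median was 0.00 over the members and over all genes. Intervals within 0.32 of 0 were found for 39 of 42 members (49% of all genes) and for all 31 constitutive subunits.

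The difference between the genotypes in their response to clozapine, tested as an interaction (clozapine effect in the labelled knockout less the wild-type effect), was called for no member, with 0 higher (0.526% of all genes) and 0 lower (0.127%). An unadjusted p under 0.05 was found for 3 members (7.14%, against 2345 genes or 13.6% in all). Psma3 had an interaction of -0.28 (log2 scale, SE 0.07, edgeR adjusted p = 0.089), and DESeq2 called it, with an adjusted p of 0.024, while limma-voom called no member. With correction for length and GC content it was -0.14 (edgeR adjusted p = 0.430). Psmb8 had an interaction of -0.92 (SE 0.33, edgeR adjusted p = 0.238) and Psmb9 one of -0.68 (SE 0.27, edgeR adjusted p = 0.270). Without wild-type clozapine 2 these were -0.67 and -0.63 (edgeR adjusted p = 0.361 and 0.341). For Psme1 the interaction was -0.11 (95% interval -0.33 to 0.11), so the called difference under vehicle was not shown to differ from that under clozapine. The median was -0.03 over the members and -0.01 over all genes.

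**Figure D4:**
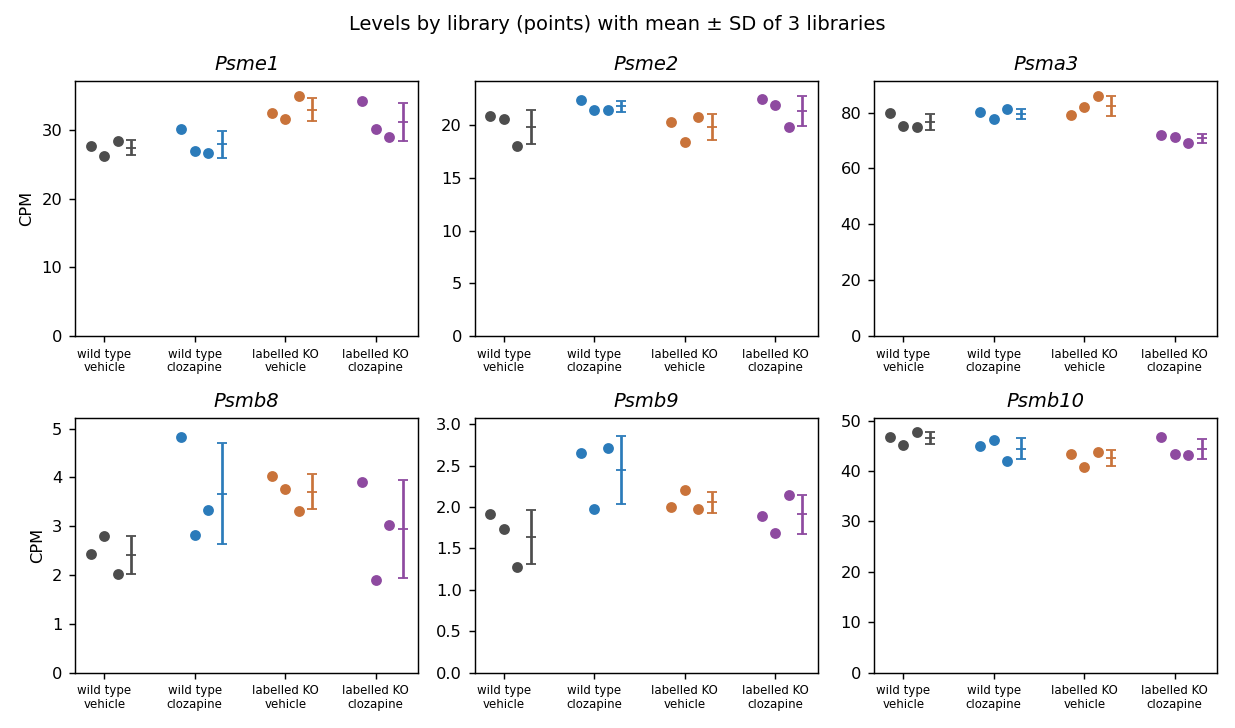
CPM by library (points) with mean and SD of 3 libraries (bars beside them) for Psme1, Psme2, Psma3, Psmb8, Psmb9 and Psmb10, each on its own axis from 0. Psme1 is higher in labelled knockout vehicle (31.6 to 34.9) than in wild-type vehicle (26.2 to 28.4), and Psma3 is lowest in labelled knockout clozapine (69.1 to 72).

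Most genes of a list that act with the immune subunits were highest in wild-type clozapine 2, as was Psmb8, while Psmb9 was highest in wild-type clozapine 5 and Psmb10 in wild-type vehicle 4. Of 12 genes of antigen presentation and interferon response, all tested, edgeR, DESeq2 and limma-voom called 0 in every comparison. By edgeR, 7 had an unadjusted p under 0.05 for clozapine in wild type (11.6% of all genes) and 0 in the labelled knockout (12.2%). There were 3 for the genotypes under vehicle (23.8%), 5 under clozapine (15.9%) and 7 in the interaction (13.6%). Without wild-type clozapine 2 these numbers were 5, 1, 4, 2 and 5. EdgeR then called 1 of the 12 for the genotypes under vehicle (1709 of all 17286 genes). Without wild-type clozapine 3, edgeR called 4 of the 12 for clozapine in wild type (130 of all genes). It called 2 for the genotypes under vehicle (1617 of all genes), 1 under clozapine (125) and 2 in the interaction (85). Of the 12, 8 were highest in wild-type clozapine 2, where their median log2 deviation from the 12-library means was 0.32. Tap1, the peptide transporter gene that is the divergent neighbour of Psmb9 and shares 212 exonic bases with it, was at 3.04, 3.61 and 3.25 CPM in the libraries of wild-type vehicle, 7.27, 3.71 and 4.22 in those of wild-type clozapine, 5.22, 4.14 and 4.74 in those of labelled knockout vehicle and 4.61, 3.55 and 3.64 in those of labelled knockout clozapine. It is given because of that overlap. The 12 genes had a median log2 change of 0.24 with clozapine in wild type (0.17 when wild-type clozapine 2 was left out, 0.29 when wild-type clozapine 3 was), and of 0.17 in the labelled knockout against wild type under vehicle. Both comparisons share the wild-type vehicle libraries, where the median deviation was -0.20 to -0.09. The microglial sum in wild-type clozapine 2 was 230.8 CPM, inside the range of the other libraries. Red blood cell markers (5 of 5 measured, none at 0 in every library) summed to 211.7, 436.4 and 219 CPM in the libraries of wild-type clozapine and 138.2 to 180.3 CPM in those of wild-type vehicle, a median log2 change of 0.86 with none called by edgeR. Endothelial markers (4 of 4) summed to 128 to 135.5 CPM in labelled knockout vehicle against 134.1 to 163.1 CPM in wild-type vehicle (median -0.21, 1 called lower by edgeR). The summed choroid plexus markers (3 of 3) ranged from 2.92 to 8.33 CPM outside wild-type vehicle 3, which had 58.1 CPM. The part of these cells in the results was not tested.

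Among the factors that assemble, inhibit and feed the proteasome, edgeR called genes in the labelled knockout against wild type under vehicle, where 4.01% of all genes were called higher and 5.15% lower. Of 13 assembly factors and 19S-associated proteins, it called 1 higher and 1 lower, and DESeq2 and limma-voom each called 2. Psmf1, which encodes the proteasome inhibitor PI31, was at 33.6, 32.0 and 35.6 CPM in the wild-type vehicle libraries and 43.0, 39.1 and 40.6 CPM in those of labelled knockout vehicle (log2 change 0.28, SE 0.06, edgeR adjusted p = 0.014). Ecpas, which encodes an adaptor that tethers core and cap, was at 100.7, 99.3 and 99.0 CPM in the wild-type vehicle libraries and 86.5, 92.6 and 82.8 CPM in those of labelled knockout vehicle (log2 change -0.19, SE 0.05, edgeR adjusted p = 0.031). In both cases the vehicle groups did not overlap. The call for Psmf1 was lost without wild-type vehicle 3 (edgeR adjusted p = 0.076) or labelled knockout vehicle 2 (0.069). That for Ecpas was lost without wild-type vehicle 1 (0.072), 3 (0.09) or 4 (0.051) or labelled knockout vehicle 2 (0.088) or 5 (0.122). Under clozapine the log2 changes between the genotypes were 0.11 for Psmf1 and -0.15 for Ecpas (edgeR adjusted p = 0.416 and 0.156). There the libraries of Ecpas did not overlap. The interactions of Psmf1 and Ecpas were -0.16 and 0.04 (edgeR adjusted p = 0.465 and 0.873).

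Of 7 genes of proteasome transcription, edgeR called 1 lower (5.15% of all genes) and 0 higher (4.01%) under vehicle, limma-voom called 1 and DESeq2 2. Ddi2, which encodes the protease that releases NRF1 from the endoplasmic reticulum, was at 61.2, 65.6 and 64.2 CPM in the wild-type vehicle libraries and 54.4, 55.5 and 49.8 CPM in those of labelled knockout vehicle (log2 change -0.26, SE 0.06, edgeR adjusted p = 0.0088), and the call held in all 12 fits that left out 1 library. It was at 64.0, 68.9 and 62.8 CPM in the wild-type clozapine libraries and 57.9, 57.9 and 57.3 CPM in those of labelled knockout clozapine. These groups did not overlap, but Ddi2 was not called (log2 change -0.18, SE 0.06, edgeR adjusted p = 0.114). Its interaction was 0.08 (edgeR adjusted p = 0.716). Nfe2l1 itself was at 442.4, 442.8 and 449.6 CPM in the libraries of wild-type vehicle, 467.2, 449.1 and 441.8 in those of wild-type clozapine, 411.5, 413.5 and 394.1 in those of labelled knockout vehicle and 436.7, 454.2 and 433.7 in those of labelled knockout clozapine. It had the smallest p of these 7 with clozapine in the labelled knockout (log2 change 0.12, SE 0.04, edgeR adjusted p = 0.274) and in the labelled knockout against wild type under vehicle its log2 change was -0.13 (SE 0.04, edgeR adjusted p = 0.079), where the libraries did not overlap. EdgeR called Nfe2l1 in no comparison. Mafk, of smallest p among the 7 between the genotypes under clozapine, went the other way (log2 change 0.44, SE 0.12, edgeR adjusted p = 0.064). Under vehicle its log2 change was 0.31 (SE 0.11, edgeR adjusted p = 0.106). Over the 7 genes the log2 changes ran from -0.26 to 0.32 under vehicle and from -0.24 to 0.44 under clozapine.

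Of 16 genes for ubiquitin, its activating enzymes and its shuttles, edgeR called 1 higher (4.01% of all genes) and 1 lower (5.15%) in the same comparison, DESeq2 called 2 and limma-voom 1. Those called by edgeR encode partners of 1 complex, the cofactors that recruit the unfoldase VCP to ubiquitin chains. Ufd1 was at 56.6, 58.7 and 60.5 CPM in the wild-type vehicle libraries and 65.0, 69.0 and 64.0 CPM in those of labelled knockout vehicle (log2 change 0.17, SE 0.05, edgeR adjusted p = 0.04). Nploc4 was at 75.5, 76.5 and 78.0 CPM in the wild-type vehicle libraries and 69.7, 70.8 and 66.3 CPM in those of labelled knockout vehicle (log2 change -0.15, SE 0.05, edgeR adjusted p = 0.047). In both genes the vehicle groups did not overlap, but single libraries decided both: Ufd1 passed only in the 4 fits that left out vehicle 4 of wild type or one of its clozapine libraries, and Nploc4 only in the 1 without wild-type clozapine 2, among 12 fits that left out 1 library (edgeR adjusted p from 0.041 to 0.131 and from 0.046 to 0.172). Under clozapine the log2 changes between the genotypes were -0.02 for Ufd1 and 0.04 for Nploc4 (edgeR adjusted p = 0.885 and 0.715). Their interactions were -0.19 and 0.20 (edgeR adjusted p = 0.239 and 0.195). In the 4 comparisons other than the genotypes under vehicle, edgeR called 0 genes of these 3 lists. Per list, 0 to 2 genes had an unadjusted p under 0.05 (11.6% to 15.9% of all genes). DESeq2 called 1, among the genes of proteasome transcription under clozapine. The medians of these lists in the 4 pairwise comparisons lay between -0.10 and 0.05.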

How the data were processed

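The 12 libraries were mapped to groups from GEO's labels. STAR 2.5.1b (build GRCm38) and featureCounts are the tools that the submitters' processing notes name. The authors deposited estimated counts per gene, of which 7.39% were not whole, as when reads are shared between genes. The rule of sharing and the use of strand are not given in the sources used here. Of the 44 members, 13 had such values and 13 overlap exons of other genes. Identifiers were named from GENCODE mouse release M21 (46488 of 47069).

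Counts were rounded and tested with edgeR 4.0.16 in R 4.3.3 (TMM scaling, filterByExpr, robust quasi-likelihood fit of 4 group means, Benjamini-Hochberg adjustment over 17286 genes, threshold 0.05), with no pairing. CPM are counts over TMM-scaled library sizes. Replicates vary beyond counting error, so the spread between 3 libraries sets the precision. The fit was checked on simulated counts. Alternatives were DESeq2 1.42.0, limma-voom (limma 3.58.1), RLE size factors, 2 other low-count filters, unrounded counts, a replicate block, 1 surrogate variable (sva 3.50.0), a length and GC correction, a threshold of 0.10, fits of only the compared groups and leaving out each library.

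The members and lists were chosen with earlier results of these data known. Named genes are the catalytic subunits and their immune counterparts, Psme1 and Psme2, members past the threshold or the 2 of smallest p in each comparison, and the highest and lowest per kb in each role; from other lists up to 3 called genes or the 1 of smallest p. Some results under this rule are not reported here. Nfe2l1 (values by library and under vehicle), Mafk (under vehicle) and Tap1, and members named for non-overlap, were added after their values were seen. So were, beyond that rule, values under clozapine and in the interaction for genes of other lists called under vehicle. Promoter sequences are RefSeq's (GRCm38.p6).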

Additional observations from a re-analysis of the deposited data

How the results depend on the processing

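Of 114 counts of called members under other settings, 100 stayed the same, as did 102 of 109 medians. For clozapine in the labelled knockout, 1 member (Psma3, lower) was called at a threshold of 0.10, without the low-count filter, with 1 surrogate variable and by DESeq2. For the labelled knockout against wild type under vehicle, 0 members were called with the replicate block, 2 with the length and GC correction (Psmb10 and Psmc6, both lower, and not Psme1) and 2 in a fit of only the compared groups (Psme1 and Psmb8, higher). Leaving out single libraries gave 0 to 1 there. At a threshold of 0.10, 1 member (Psma3) was called under clozapine and 1 (Psma3) in the interaction, where DESeq2 also called 1. The median log2 change of members was 0.00 for clozapine in the labelled knockout, -0.03 for the genotypes under vehicle and 0.03 for the interaction with the length and GC correction. With limma-voom it was 0.06 and -0.07 for the latter pair. Leaving out single libraries gave medians of -0.01 to 0.04 for the genotypes under vehicle and -0.04 to 0.00 for the interaction. Psmc6 with clozapine in the labelled knockout turned from -0.12 to 0.02 with the length and GC correction. Of 306 values of named genes, 45 lost and 4 gained a call and 1 (that of Psmc6) changed sign. With the replicate block, edgeR called none of Psmf1, Ecpas, Ddi2, Ufd1 and Nploc4 under vehicle (adjusted p 0.077 to 0.310). The calls of Ecpas and Ufd1 were also lost with the length and GC correction, those of Ecpas, Ufd1 and Nploc4 in a fit of only the compared groups, those of Ufd1 and Nploc4 without the low-count filter, and that of Nploc4 by limma-voom. Of 17 levels per kb, 14 moved by more than the SD between libraries with the longest transcript. The causes were not tested. Replicate numbers did not pair the libraries: deviations of same-numbered libraries correlated between -0.0803 and 0.123, and with the replicate block the adjusted p of Psme1 was 0.194 by edgeR. Psma8 and Psmb11 were too shallow to test, and Psmb8 and Psmb9 rest on 32 to 115 counts per library.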
